A study of Mus musculus with 96 samples.

Results

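The comparison described here set the livers of mice fed a high-fat diet for 8 weeks beside the livers of mice fed chow for the same time. Its members are 8 of the 48 liver libraries in a series of 96 libraries from liver and pancreatic islets, and the column labels of the deposited expression table chose them: the 4 high-fat mice HFD211, HFD212, HFD213 and HFD217, and the 4 chow mice CD203, CD205, CD207 and CD208. Each library came from 1 mouse. In the study, male C57BL/6N mice were bought at 4 weeks of age and kept on either diet for 4 to 24 weeks, with both tissues profiled every 4 weeks in 4 mice a group, to follow the course of diet-induced metabolic disease. The chow (CD) was LabDiet 5001 with 13.5% fat, and the high-fat diet (HFD) was Research Diets D12492 with 60% fat. Both groups were wild type, were housed at 22 °C under 12 h of light and 12 h of dark, and ate freely. Livers were sampled from the same region in each mouse, frozen at once, and their polyadenylated RNA was sequenced on a BGISEQ-500. The chow is not an ingredient-matched control of the purified diet, so fat content and the other ingredients cannot be told apart. The age at the start of the diets, the time of day at tissue collection and the feeding state of the mice are not given in the sources used here.

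The liver takes up fatty acids from blood, esterifies them to triglyceride stored in lipid droplets, exports them in lipoproteins, or burns them in mitochondria and peroxisomes under the control of the nuclear receptor PPARα. It also makes fatty acids and cholesterol through SREBP and ChREBP, clears drugs and steroids with P450 enzymes, and secretes most plasma proteins, including acute phase proteins. In male rodents, pulses of growth hormone maintain a male set of P450s, urinary proteins and transporters, and hepatocytes divide their tasks between periportal and pericentral zones.

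Values are FPKM (sequenced fragments scaled to transcript length and to the library's mapped total) as deposited, so the read counts and the depth behind them are unknown. They summed to between 584971 and 652556 FPKM per library, with between 14870 and 15360 genes above 0. Per-mouse values are given in the order CD203, CD205, CD207, CD208 and HFD211, HFD212, HFD213, HFD217. Albumin, the leading hepatocyte product, stood at 35326, 33022, 32679 and 30676 FPKM in CD and 36403, 35040.4, 37559 and 28503 FPKM in HFD mice, and the skeletal muscle list was near 0, with a highest single value of 0.19 FPKM. The tissue label thus matched its defining markers in all 8 libraries.

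HFD217 stood apart from the other HFD mice. Across the 10034 genes tested, its Pearson correlation of log2(FPKM + 1) with the 3 other HFD mice lay between 0.97 and 0.982, and with the 4 CD mice between 0.975 and 0.982. Genes are not independent replicates, so these values only describe the libraries. Its weight in limma's array weights, which give less weight to libraries far from their group, was 0.503, the lowest of the 8, beside a highest of 2.13 for HFD211. Major urinary protein genes took 11.9% of its FPKM, against 3.43%, 2.82% and 2.22% in the other HFD mice and 8.22%, 11.3%, 10.1% and 19.9% in the CD mice. Results are therefore given with all 8 mice and without HFD217. It was singled out from these same expression values, so each q without it describes the 7 other mice and is no independent test. Among the CD mice, CD205 differed from the others in clock genes, and CD203 shared high levels of immediate early genes with HFD211 and HFD212, as shown with those genes.

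A gene was tested for a difference between the diets if 4 or more of the 8 libraries held 1 FPKM of it or more. The test was limma on log2(FPKM + 1), and p-values were adjusted over all of them by the Benjamini-Hochberg method. The adjusted p is written q, and the log2 fold change of HFD over CD mice log2FC. At q under 0.05, 619 genes (6.17% of those tested) were higher and 133 (1.33%) were lower in HFD liver. The list counts with all 8 mice are to be read beside these shares. The gene lists were chosen with earlier results of these data known, so their counts describe the members and are no test of the lists. Genes that also changed by at least 1 on the log2 scale are called DEGs: 91 (0.907%) were higher and 35 (0.349%) lower. The filter ignored diet, so a gene could pass through the mice of 1 diet alone, which then also make its difference. This held for 14 of the higher DEGs (HFD mice) and 5 of the lower DEGs (CD mice). Among the genes named below, q with no filter was Mogat1 0.0163, Cyp2b9 0.000347, Cfd 0.00843, Rad51b 0.0144 and Ly6d 0.0517 for those that passed through HFD mice, and Cyp2c40 0.0242, Cyp2c55 0.061, Adgrf1 0.00585, Serpina9 0.0257 and Slc13a2 0.0145 through CD mice. At an unadjusted p under 0.05 there were 2271 genes. The share of adjusted calls that were higher was 82.3%, and 70.6% (463 higher and 193 lower) when the libraries were rescaled to a common median ratio. The median log2FC of all genes was 0.04 as deposited and -0.01 after that rescaling.

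Without HFD217, 10169 genes passed the filter (1 FPKM in at least 3 of 7 libraries). From this fit no q is given for a gene that passed through 1 diet alone, and list counts that include one are pointed out. Of all genes that passed, 1114 passed a q under 0.05: 902 (8.87%) were higher and 2.08% lower. DEGs numbered 161 higher (1.58%) and 64 lower (0.629%), of which 31 and 7 passed through 1 diet alone. Of these DEGs, 121 were also DEGs with all 8 mice. Leaving out another mouse lowered the number of adjusted calls from 752 to 430 (CD205), 329 (CD207), 356 (HFD211), 359 (HFD212) or 358 (HFD213). Without CD208 there were 322 higher and 92 lower calls, and without CD207 22 lower DEGs. Higher calls numbered 463 without CD203, 358 without CD205, 279 without CD207, 301 without HFD211, 295 without HFD212 and 297 without HFD213. Lower calls numbered 83, 72, 50, 55, 64 and 61 in the same order. Between 10116 and 10178 genes were tested in these fits. List counts without 1 of these mice are to be read beside these numbers, which fell over all genes. From here on, a value without several mice comes from as many fits, each leaving out 1 of them, and each mouse but HFD217 stands for all such fits except the one that leaves out HFD217. Of the 91 higher DEGs, 61 kept a q under 0.05 in all 8 fits that left out 1 mouse, as did 21 of the 35 lower DEGs, and in these fits no DEG changed direction. HFD217 was the HFD mouse nearest to the CD mean, on the log2 scale, for 97 of the DEGs, against 12, 14 and 3 for HFD211, HFD212 and HFD213. The groups did not overlap in 90 of the 91 higher and all 35 lower DEGs. The share of all tested genes without overlap was not counted. A lack of overlap named below therefore only describes the values.

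**Figure D1:**
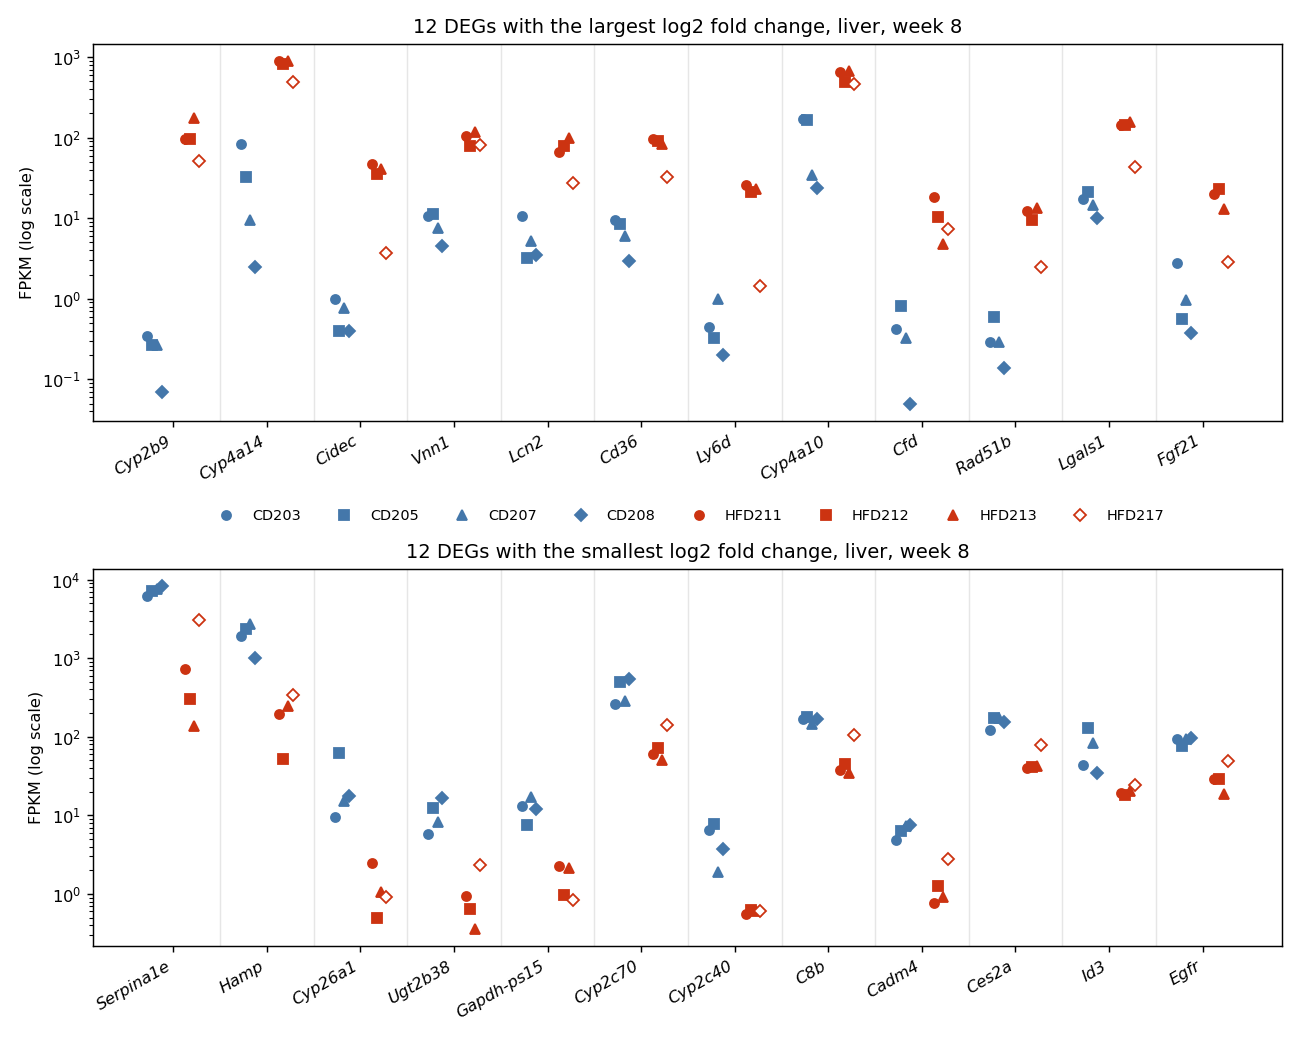
FPKM on a log axis in each of the 8 mice for the 12 DEGs with the largest and the 12 with the smallest log2FC, with CD mice in blue, HFD mice in red and HFD217 as an open red diamond. In these 24 genes, which were chosen by their change, the groups did not overlap, and this is no further support. For most of them the open diamond is the red point nearest to the blue ones.

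Fat uptake and the re-esterification of fatty acids were followed in a list of 19 genes, of which 18 passed the filter. At q under 0.05, 7 were higher and 1 was lower, and the median log2FC was 0.59, against 0.04 over all genes. Without HFD217 the counts were 7 and 0 and the median 0.66. The 7 became 4 without CD205, CD208 or HFD212 and 3 without CD207, HFD211 or HFD213. Mogat1 is in each of these counts but passed the filter through HFD mice alone. Cd36 (NCBI Gene 12491, chr5:17781690-17888959, coordinates as deposited, build GRCm38), the fatty acid translocase, stood at 9.55, 8.54, 6 and 2.97 FPKM in CD and 95.7, 91.4, 84.0 and 32.8 FPKM in HFD mice. HFD217 was the lowest HFD mouse, and Cd36 rose with a log2FC of 3.29 (SE 0.42, q 0.00554), or 3.65 without HFD217 (q 0.000729). Mogat1, a monoacylglycerol acyltransferase scarcely expressed in chow liver, had 0.8, 0.55, 0.25 and 0.33 FPKM in CD and 10.7, 8.30, 12.3 and 2.48 FPKM in HFD mice. HFD217 was again the lowest HFD mouse, for a log2FC of 2.52 (SE 0.39, q 0.00958).

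The intestinal fatty acid binding protein gene Fabp2 read 70.9, 70.01, 51.0 and 38.5 FPKM in CD and 209, 146, 188 and 115 FPKM in HFD mice, a separation without overlap and a log2FC of 1.51 (SE 0.24, q 0.00958). Pparg, the nuclear receptor that drives fat storage genes in adipocytes, gave 3.19, 3.79, 2.68 and 2.44 FPKM in CD and 13.6, 9.19, 10.5 and 4.35 FPKM in HFD mice. Pparg rose with a log2FC of 1.29 (SE 0.28, q 0.0305), or 1.58 without HFD217 (q 0.000906). Its q was 0.0559 to 0.0909 without each mouse but HFD217. The liver fatty acid binding protein Fabp1, the most abundant member, rose by 0.51 (q 0.0192), and its q was 0.059 to 0.0656 without CD207, HFD211, HFD212 or HFD213. The adipocyte form Fabp4 rose by 1.001 (q 0.043), where the q was 0.0736 to 0.114 without each mouse but HFD217. For the very long chain acyl-CoA synthetase Slc27a2, at 0.60 (q 0.0416), the q was 0.055 to 0.108 without each mouse but CD203 and HFD212. The lower member was the epidermal form Fabp5, at -1.29 (q 0.0376), whose q was 0.0579 to 0.104 without each mouse but CD207 and HFD212. In the fit of all 48 liver libraries, Fabp1, Fabp4 and Fabp5 had q of 0.318, 0.0793 and 0.106 for the same comparison.

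Among 14 tested genes of lipid droplet proteins, 7 were higher and 0 lower, with a median log2FC of 0.71. Without HFD217, 10 of 15 were higher, with Cidea passing through HFD mice alone, and the median was 0.91. Cidec (NCBI Gene 14311, chr6:113424634-113435760), which fuses droplets into larger ones, had 1, 0.4, 0.76 and 0.4 FPKM in CD and 47.8, 35.8, 40.7 and 3.66 FPKM in HFD mice. HFD217 lay between the CD mice and the other HFD mice. Cidec rose with a log2FC of 3.91 (SE 0.71, q 0.0177), or 4.70 without HFD217 (q 6.58e-06), and its q was 0.0515 to 0.0576 without each mouse but CD203 and HFD217. Its relative Cidea did not pass the filter with all 8 mice, at 0.04, 0.15, 0 and 0.04 FPKM in CD and 34.0, 5.42, 5.72 and 0.68 FPKM in HFD mice. Plin4, a perilipin, read 1.61, 1.59, 0.86 and 0.53 FPKM in CD and 9.79, 16.8, 10.9 and 7.16 FPKM in HFD mice, without overlap, for a log2FC of 2.48 (SE 0.26, q 0.00241). Mgll, which cleaves monoacylglycerol, had 62.9, 54.7, 58.1 and 48.3 FPKM in CD and 138, 116, 129 and 88.2 FPKM in HFD mice, and Fitm1, which helps form droplets, 31.5, 36.5, 25.8 and 19.2 FPKM in CD and 84.3, 68.2, 72.4 and 60.5 FPKM in HFD mice. Both separated the groups fully, by 1.05 (q 0.00554) and 1.33 (q 0.00588).

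The droplet-bound dehydrogenase gene Hsd17b11 and the second FIT gene, Fitm2, rose by 0.94 (q 0.00175) and 0.99 (q 0.0059). For Plin5, which ties droplets to mitochondria, the value was 0.76 (q 0.0463), and its q was 0.0609 to 0.12 without each mouse but CD205 and HFD217. Hsd17b13 changed by 0.66 (q 0.0678) with all 8 mice and by 0.85 without HFD217 (q 0.00269). The triglyceride lipase gene Pnpla2 stood at a log2FC of 0.28 (q 0.485).

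Fatty acid oxidation and ketogenesis formed the list with the most calls, among lists chosen with earlier results of these data known. Of its 32 genes 27 were higher, 0 was lower, and all 32 had a positive log2FC, with a median of 0.95 (0.04 over all genes). Related copies, such as the Cyp4a genes, count as separate members. With HFD217 left out the count was again 27 and the median 1.01. Over the 8 fits without 1 mouse the count ran from 22 to 29. Cyp4a14 (NCBI Gene 13119, chr4:115486200-115496159), an ω-hydroxylase of fatty acids and a classical PPARα target, had 84.4, 32.9, 9.50 and 2.45 FPKM in CD and 893, 814, 894 and 489.9 FPKM in HFD mice. The gene rose with a log2FC of 5.39 (SE 0.90, q 0.0132), or 5.59 without HFD217 (q 0.0147). Its neighbour Cyp4a10 (NCBI Gene 13117, chr4:115508628-115579015) had 170.3, 167, 34.8 and 23.9 FPKM in CD and 654, 499, 683 and 467 FPKM in HFD mice. Cyp4a10 rose with a log2FC of 3.001 (SE 0.65, q 0.034), or 3.09 without HFD217 (q 0.0422), and its q was 0.058 to 0.0976 without CD207, CD208, HFD211, HFD212 or HFD213. Reads of the near-identical Cyp4a copies are hard to assign, so the split between these genes is uncertain.

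Vnn1 (NCBI Gene 22361, chr10:23894688-23905344), the pantetheinase vanin-1, read 10.7, 11.3, 7.56 and 4.56 FPKM in CD and 105, 78.5, 117 and 81.5 FPKM in HFD mice, and HFD217 lay within the range of the other HFD mice. The groups were far apart, for a log2FC of 3.39 (SE 0.25, q 0.000686), or 3.46 without HFD217 (q 0.000601). Acadm, the medium-chain acyl-CoA dehydrogenase, had 151, 141, 134 and 117 FPKM in CD and 322, 287, 358 and 274 FPKM in HFD mice, with a log2FC of 1.18 (SE 0.11, q 0.00188). No CD mouse reached an HFD mouse. Another Cyp4a copy, Cyp4a31, and Bdh1, which makes β-hydroxybutyrate, rose by 1.91 (q 0.00188) and 1.08 (q 0.00295), and the receptor gene Ppara itself by 0.79 (q 0.0115).

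Further called members were the mitochondrial thioesterase Acot2, at 2.26 (q 0.0125), the cytosolic thioesterase Acot1, at 1.84 (q 0.0179), the peroxisomal enzyme Ehhadh, at 1.23 (q 0.018), and Cpt1a, the gate of mitochondrial import, at 0.83 (q 0.018). The q of Acot2 was 0.0501 without CD207, that of Acot1 was 0.059 to 0.0611 without CD207, HFD212 or HFD213, that of Ehhadh was 0.0546 to 0.0609 without CD207, CD208 or HFD211 and that of Cpt1a was 0.0542 to 0.0549 without CD208, HFD212 or HFD213. Pdk4, which shuts carbohydrate out of the citric acid cycle, had 18.4, 3.43, 0.98 and 1.02 FPKM in CD and 34.1, 94.2, 3.09 and 1.19 FPKM in HFD mice. CD203, HFD211 and HFD212 were its high mice, the groups overlapped, and its log2FC of 1.61 (q 0.516) did not pass the test.

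**Figure D2:**
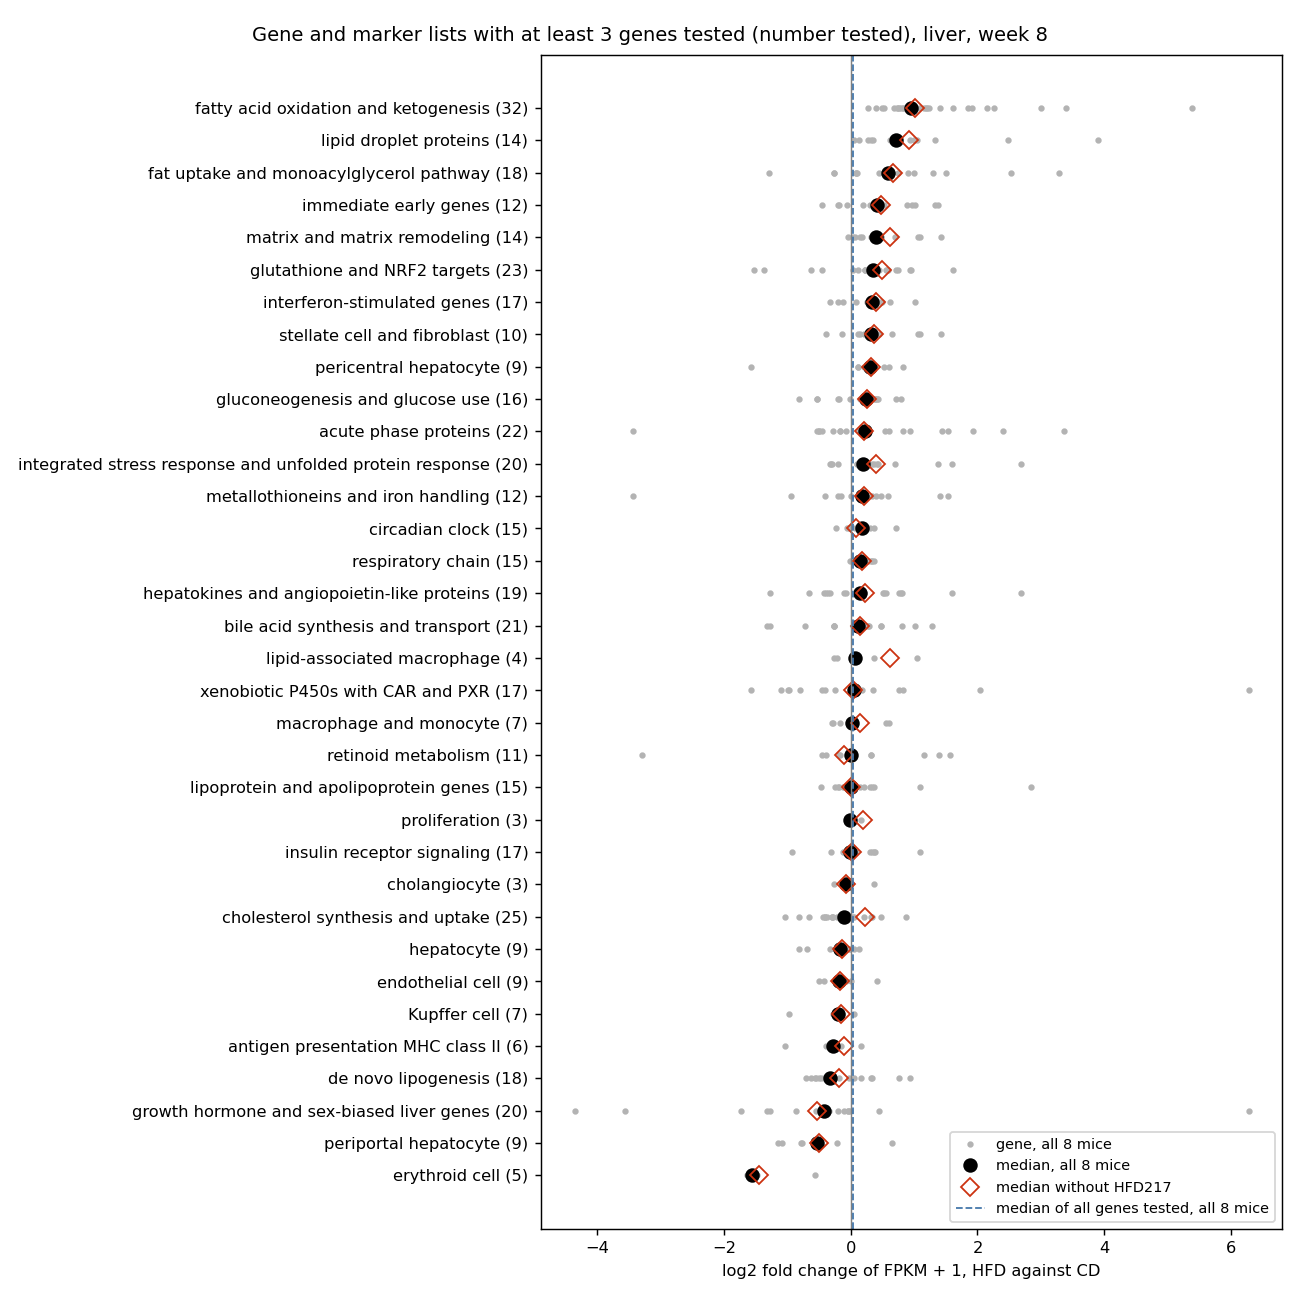
Each grey dot is 1 gene of a list, at its log2FC between HFD and CD mice with all 8 mice. Black circles are list medians with all 8 mice and open red diamonds list medians without HFD217, with fatty acid oxidation at 0.95 and 1.01 and cholesterol synthesis at -0.11 and 0.23.

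Synthesis of fatty acids and of cholesterol gave no calls by limma with all 8 mice. Of 18 genes of fatty acid synthesis 0 passed a q of 0.05 (3 passed an unadjusted 0.05), with a median log2FC of -0.33, and of 25 cholesterol genes 0 passed (0 unadjusted), with a median of -0.11. Scd1, the stearoyl-CoA desaturase, had 1139, 683, 471 and 819.7 FPKM in CD and 1383, 974, 663 and 58.2 FPKM in HFD mice. HFD217 was the lowest of all 8 mice by a wide margin, while the other HFD mice overlapped the CD mice, and the log2FC was -0.63 (q 0.741) with it and 0.38 without HFD217 (q 0.531). Fatty acid synthase, Fasn, read 77.2, 30.5, 33.4 and 50.5 FPKM in CD and 31.4, 82.6, 17.6 and 20.6 FPKM in HFD mice, and the groups overlapped, at -0.50 (q 0.602). Srebf1, the gene of the lipogenic SREBP, had 101.1, 72.8, 119 and 83.6 FPKM in CD and 65.6, 80.9, 40.2 and 47.5 FPKM in HFD mice. Its HFD values lay mostly under the CD values, with HFD212 inside the CD range, and the change of -0.70 (q 0.11) did not pass.

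Without HFD217 the fatty acid synthesis list held 1 gene higher and 1 lower. The first was the elongase gene Elovl5, at 0.94 (q 0.408) with all 8 mice and 1.53 without HFD217 (q 0.0324). The second was Mlxipl, the gene of ChREBP, at -0.56 (q 0.103) and -0.71 without HFD217 (q 0.0178). Without CD205 the list also held 1 lower gene. In the cholesterol list the median moved from -0.11 to 0.23 when HFD217 was left out, with 0 genes past the threshold in limma either way. Sqle, squalene epoxidase, stood at 20.8, 13.2, 4.22 and 13.1 FPKM in CD and 9.80, 37.7, 8.84 and 0.76 FPKM in HFD mice, and Hmgcs1, which supplies the pathway with HMG-CoA, at 46.8, 49.0, 17.7 and 28.8 FPKM in CD and 94.1, 196, 53.1 and 13.6 FPKM in HFD mice. In both genes HFD212 was the highest of the 8 mice and HFD217 the lowest, so the HFD group spanned the CD group. Their log2FCs were -0.41 (q 0.831) and 0.87 (q 0.546), and neither passed.

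Of 25 genes of xenobiotic P450s and their receptors CAR and PXR, 17 passed the filter, 3 were higher and 2 lower, with a median of 0.05. The higher count was 6 without HFD217 and the lower count 5 without HFD217, 1 without HFD213 and 0 without CD205, CD207, CD208, HFD211 or HFD212, with 20 genes tested without HFD217. Through 1 diet alone passed Cyp2b9 (higher) and Cyp2c55 (lower), and without HFD217 also 3 more of the 6, Cyp2a4 and Cyp2b13 among them. Cyp2b9 (NCBI Gene 13094, chr7:26173335-26224886), a P450 normally found in female liver, had the largest log2FC of all DEGs. It stood at 0.35, 0.27, 0.27 and 0.07 FPKM in CD and 95.7, 96.0, 173 and 51.3 FPKM in HFD mice. The gene rose with a log2FC of 6.28 (SE 0.31, q 0.000217). Cyp2b copies are near-identical, so the split of reads among them is uncertain. Cyp2a4, also female-biased, did not pass the filter with all 8 mice, at 0.31, 0.17, 0.2 and 0.11 FPKM in CD and 4.77, 12.6, 34.6 and 0.66 FPKM in HFD mice.

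Cyp2e1, an abundant pericentral P450 that oxidizes ethanol and ketones, had 3752, 3476, 3630.4 and 3780.3 FPKM in CD and 5642, 5785, 7256 and 7417 FPKM in HFD mice. HFD213 and HFD217 were highest, for a log2FC of 0.82 (SE 0.11, q 0.0052). Cyp2c38 read 13.9, 14.5, 11.7 and 8.51 FPKM in CD and 69.2, 58.4, 90.8 and 19.6 FPKM in HFD mice, with HFD217 closest to the CD mice, and rose with a log2FC of 2.04 (SE 0.43, q 0.0315), or 2.49 without HFD217 (q 0.000453). Its q was 0.065 to 0.0943 without each mouse but HFD217. Cyp2c29 and Cyp2c55 were the lower members, at -0.98 (q 0.0247) and -0.80 (q 0.036), and the call of Cyp2c55 was lost with no filter (q 0.061). The q of Cyp2c29 was 0.0623 to 0.0769 without CD205, CD207, CD208, HFD211 or HFD212, and that of Cyp2c55 was 0.0511 to 0.0899 without each mouse but CD203 and HFD217. Cyp1a2, which metabolizes caffeine, had 284, 317, 346 and 510.9 FPKM in CD and 69.8, 97.8, 97.2 and 299.9 FPKM in HFD mice. HFD217 lay among the CD mice and the other HFD mice well under them, so its log2FC was -1.57 (q 0.0659) with all 8 mice and -2.01 without HFD217 (q 0.00117). Cyp3a11 also passed only without HFD217, at -1.10 (q 0.077) and -0.77 without HFD217 (q 0.0272), although there HFD217 was the lowest mouse. The gene of CAR, Nr1i3, changed by 0.76 (q 0.0967).

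Outside that list, 2 more P450s of the Cyp2c cluster were among the 12 DEGs with the smallest log2FC. Cyp2c70 (NCBI Gene 226105, chr19:40153361-40187286), which makes the muricholic acids of mouse bile, had 258, 498, 284 and 546 FPKM in CD and 61.0, 71.2, 50.04 and 143 FPKM in HFD mice. It was lower in all 4 HFD mice, least so in HFD217, with a log2FC of -2.32 (SE 0.37, q 0.01), or -2.62 without HFD217 (q 0.00159). Cyp2c40 (NCBI Gene 13099, chr19:39767073-39886769) had 6.46, 7.86, 1.88 and 3.69 FPKM in CD and 0.55, 0.62, 0.6 and 0.6 FPKM in HFD mice, nearly equal in the HFD mice, with a log2FC of -1.78 (SE 0.31, q 0.0134). The Cyp2c copies resemble each other closely, which leaves the assignment of reads among them uncertain. The carboxylesterase gene Ces2a (NCBI Gene 102022, chr8:104734003-104741634), had 123, 173, 173 and 154 FPKM in CD and 40.0, 40.9, 42.3 and 78.9 FPKM in HFD mice, and the glucuronosyltransferase gene Ugt2b38 (NCBI Gene 100559, chr5:87409939-87424203) 5.72, 12.3, 8.30 and 16.9 FPKM in CD and 0.94, 0.65, 0.36 and 2.33 FPKM in HFD mice. Both separated the groups, with HFD217 the highest HFD mouse, and had log2FCs of -1.65 (q 0.00554) and -2.50 (q 0.00674), and Ces2a -1.88 without HFD217 (q 0.000235).

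Retinoid metabolism held 3 higher and 1 lower gene among 11 tested with all 8 mice, with a median of 0.00. Without HFD217 the counts were the same among 13 tested, with a median of -0.11, and each other fit that left out 1 mouse also gave 3 and 1. Cyp26a1 (NCBI Gene 13082, chr19:37697732-37701536), which degrades retinoic acid, had 9.39, 61.3, 15.0 and 17.5 FPKM in CD and 2.45, 0.49, 1.06 and 0.92 FPKM in HFD mice. CD205 was far above the other CD mice, for a log2FC of -3.30 (SE 0.53, q 0.0119). Aldh1a1, which makes retinoic acid from retinaldehyde, had 449, 620.5, 424 and 433 FPKM in CD and 1069.5, 1157, 1142 and 898 FPKM in HFD mice, without overlap, and rose with a log2FC of 1.16 (SE 0.14, q 0.00368). The retinol dehydrogenase gene Rdh16 had 20.4, 18.2, 14.3 and 13.1 FPKM in CD and 51.5, 54.9, 48.1 and 28.8 FPKM in HFD mice, also without overlap, with a log2FC of 1.40 (SE 0.21, q 0.00824), and Rdh9 rose by 1.56 (q 0.00674).

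Calls in the list of growth hormone and sex-biased liver genes changed when HFD217 was left out. With all 8 mice, 1 of 20 tested genes was higher (Cyp2b9), close to the 6.17% of all tested genes, and 1 lower (Igf1). A negative log2FC was found for 18, with a median of -0.42. Without HFD217, 2 of 21 were higher and 7 lower, with a median of -0.53. The lower count was 7 without HFD217 and 0 without each mouse but HFD213 and HFD217, and the higher count was 2 without CD203, CD205, CD207, CD208 or HFD217, each time Cyp2b9 and Cyp2b13, which passed through HFD mice alone. Hsd3b5, a steroid dehydrogenase of male liver, had 167, 229, 219 and 258 FPKM in CD and 5.38, 6.48, 1.09 and 123 FPKM in HFD mice. HFD217 approached the CD mice, the other HFD mice were close to 0, and the groups did not overlap. Its change was -4.36 (q 0.0542) with all 8 mice and -5.55 without HFD217 (q 0.000613). The major urinary protein gene Mup7 had 13458, 20018, 18739 and 39099 FPKM in CD and 1649, 886, 474 and 14531 FPKM in HFD mice. Here HFD217 lay within the CD range, and the change was -3.56 (q 0.0702) and -4.57 without HFD217 (q 0.00173). Mup copies are near-identical, so the level of each single Mup gene is uncertain.

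The other lower genes without HFD217 were Cyp4a12b, at -2.10 (q 0.0178), the bile acid and steroid transporter gene Slco1a1, at -1.78 (q 0.0151), the oxysterol hydroxylase gene Cyp7b1, at -1.63 (q 0.0142), Mup3, at -1.17 (q 0.0031), and Igfals, which stabilizes circulating IGF-1, at -0.74 (q 0.036). Igf1, the main target of growth hormone in liver, had 79.2, 74.3, 87.8 and 76.6 FPKM in CD and 57.1, 57.9, 69.8 and 56.8 FPKM in HFD mice. Its groups did not overlap, HFD213 was the highest HFD mouse, and it fell with a log2FC of -0.39 (SE 0.09, q 0.0358). The q of Igf1 was 0.0523 to 0.101 without each mouse but HFD213. The growth hormone receptor gene Ghr stood at -0.05 (q 0.76). Serpina1e (NCBI Gene 20704, chr12:103946931-103956897), 1 of several near-identical α1-antitrypsin genes, had the lowest log2FC of all DEGs, at 6095, 7170.2, 7554 and 8184 FPKM in CD and 734, 303, 139 and 3020.2 FPKM in HFD mice. HFD217 was several times above the other HFD mice and under the CD mice, for a log2FC of -3.70 (SE 0.83, q 0.0385), or -4.52 without HFD217 (q 0.002). Its q was 0.071 to 0.106 without each mouse but HFD217, and its share of reads among the copies is uncertain.

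**Figure D3:**
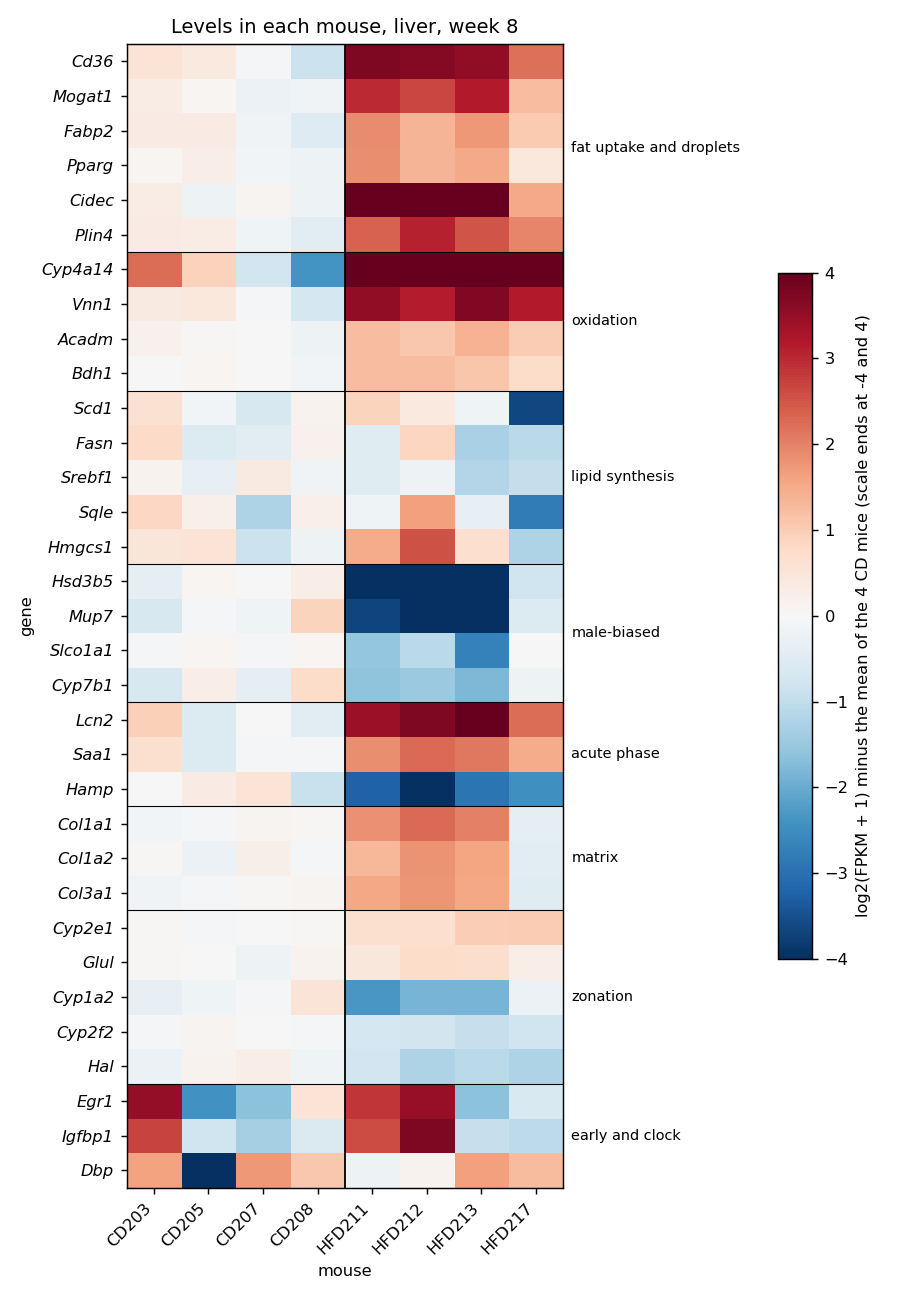
Colour shows log2(FPKM + 1) of each gene (vertical axis) in each mouse (horizontal axis) minus the mean of the 4 CD mice. HFD217 resembles the other HFD mice in the oxidation genes and the CD mice in the male-biased and collagen genes, while Egr1 and Igfbp1 are high in CD203, HFD211 and HFD212.

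Among 22 acute phase genes 7 were higher and 3 lower, with a median of 0.23 (9, 3 and 0.22 without HFD217). The higher count was 4 without CD207 or HFD213. Lcn2 (NCBI Gene 16819, chr2:32384637-32387739), the siderophore-binding lipocalin-2, had 10.7, 3.17, 5.20 and 3.51 FPKM in CD and 66.1, 79.7, 100.5 and 27.4 FPKM in HFD mice. HFD217 was the lowest HFD mouse and still above all CD mice, for a log2FC of 3.37 (SE 0.46, q 0.00674), or 3.75 without HFD217 (q 0.00113). Saa1, serum amyloid A1, read 96.6, 41.7, 58.7 and 59.5 FPKM in CD and 226, 300.2, 266 and 172 FPKM in HFD mice, without overlap, with a log2FC of 1.93 (SE 0.26, q 0.00554). Orm2, an orosomucoid gene, had 12.1, 12.8, 11.2 and 16.9 FPKM in CD and 48.5, 43.4, 56.1 and 21.4 FPKM in HFD mice, with a log2FC of 1.54 (SE 0.28, q 0.0146), and its q was 0.0544 without CD207 and 0.0504 without HFD211. Saa2 rose by 2.40 (q 0.00993) and Saa3 by 1.45 (q 0.0213), where the q of Saa3 was 0.0542 without CD208 and 0.0627 without HFD213. Saa and Orm copies resemble each other closely, so the level of each single copy is uncertain.

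The fibrinogen gene Fgb had a log2FC of -0.50 (q 0.0105) and Orm1 of -0.53 (q 0.0298), the latter in the opposite direction to Orm2 and to Orm3, at 0.93 (q 0.0181). The third lower member, Hamp, is described with the iron genes. The q of Orm1 was 0.0568 to 0.0783 without CD203, CD205, CD208, HFD211 or HFD212, that of Orm3 was 0.0547 to 0.0586 without CD207, HFD211 or HFD213, and that of Serpina3n, at 0.83 (q 0.0173), was 0.0505 to 0.06 without CD207, CD208, HFD212 or HFD213. When the same comparison was read from the fit of all 48 liver libraries, the q was 0.305 for Saa1, 0.348 for Saa2, 0.356 for Saa3, 0.552 for Orm1, 0.269 for Orm2, 0.421 for Orm3, 0.366 for Fgb and 0.115 for Serpina3n. Lcn2 passed there as well, at 0.00746.

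Hamp (NCBI Gene 84506, chr7:30942368-30944017), the gene of the iron hormone hepcidin, had 1887, 2338, 2735 and 1012 FPKM in CD and 196, 52.6, 244 and 343 FPKM in HFD mice. Hamp fell with a log2FC of -3.44 (SE 0.58, q 0.0138), or -3.77 without HFD217 (q 0.00774). Its q was 0.0509 without CD207, and was 0.0737 in the fit of 48 libraries. In the list of metallothioneins and iron handling, which includes Hamp, 1 of 12 genes was higher and 1 lower, with a median of 0.17. The higher count is close to the 6.17% of all tested genes that were higher. The higher count was 3 without HFD217 and 0 without each mouse but HFD217, and the lower count was 0 without CD207. The higher gene was ferritin heavy chain, Fth1, at 0.58 (q 0.0392), where the q was 0.0759 to 0.109 without each mouse but HFD217. The light chain Ftl1 changed by 0.34 (q 0.145), or 0.45 without HFD217 (q 0.0202). Metallothionein Mt1 had 202, 8.82, 40.3 and 16.1 FPKM in CD and 34.4, 95.1, 199.9 and 101.3 FPKM in HFD mice, and its groups overlapped. Id3 (NCBI Gene 15903, chr4:136143822-136147320), an inhibitor of DNA-binding proteins that bone morphogenetic protein signals switch on along with Hamp, had 43.6, 128, 82.3 and 34.7 FPKM in CD and 19.3, 18.2, 20.2 and 24.4 FPKM in HFD mice. CD205 was highest, and Id3 fell with a log2FC of -1.59 (SE 0.37, q 0.0408), or -1.67 without HFD217 (q 0.047). The q of Id3 was 0.105 to 0.116 without CD207, HFD211, HFD212 or HFD213.

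Of 19 genes of hepatokines and angiopoietin-like proteins, 4 were higher and 2 lower (median 0.15), or 5 and 2 without HFD217. The higher count was 2 without each mouse but CD203 and HFD217, and the lower count was 1 without CD203, CD207, CD208, HFD211 or HFD212. Fgf21 (NCBI Gene 56636, chr7:45613890-45619350), a hormone made in fasting and under amino acid stress, had 2.75, 0.56, 0.97 and 0.38 FPKM in CD and 19.8, 23.4, 12.99 and 2.90 FPKM in HFD mice. HFD217 stood just above CD203, the highest CD mouse, and the rest of the HFD group far above both. Fgf21 rose with a log2FC of 2.69 (SE 0.59, q 0.0366), or 3.27 without HFD217 (q 0.00175), and its q was 0.089 to 0.104 without each mouse but CD203 and HFD217. The lower genes were Igf1, given above, and Angptl8. Angptl8, an inhibitor of lipoprotein lipase that insulin induces, had 83.5, 99.7, 98.5 and 100.7 FPKM in CD and 45.6, 38.3, 46.8 and 27.8 FPKM in HFD mice, without overlap, and fell with a log2FC of -1.27 (SE 0.16, q 0.00419). In the fit of 48 libraries the q of Angptl8 was 0.104. Lect2 had 86.4, 98.1, 83.0 and 101.01 FPKM in CD and 157, 157, 186 and 144 FPKM in HFD mice, with a log2FC of 0.80 (SE 0.10, q 0.00442). Selenoprotein P, Sepp1, rose by 0.55 (q 0.00958), and the activin subunit gene Inhbe by 0.76 (q 0.0321), where the q was 0.0672 to 0.0892 without each mouse but CD203 and HFD217.

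The integrated stress and unfolded protein response list held 2 higher and 0 lower genes among 20 (median 0.20), beside 6.17% of all tested genes higher. The 2 were Fgf21, given above, and Sesn2, at 0.44 (q 0.0354). The q of Sesn2 was 0.0575 to 0.0954 without each mouse but HFD217. The list's higher count was 1 without CD203 and 0 without each mouse but CD203 and HFD217, and without HFD217 it also held 2 lower genes. Gdf15, a stress hormone, had 32.5, 4.47, 7.86 and 7.84 FPKM in CD and 89.1, 165, 9.85 and 6.51 FPKM in HFD mice. HFD211 and HFD212 were the high mice, HFD213 and HFD217 lay within the CD range, and the log2FC of 1.60 (q 0.428) did not pass.

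Of 23 genes of glutathione metabolism and targets of NRF2, 3 were higher and 2 lower (median 0.35). The higher count was 12 without HFD217, 1 without CD203, CD207, CD208, HFD211 or HFD212 and 0 without HFD213. Gstp1, a glutathione transferase abundant in male liver, had 2874, 4081, 5398 and 5416 FPKM in CD and 1592, 1334, 1247 and 1897 FPKM in HFD mice, and Gsta2, an alpha-class transferase, 19.3, 46.4, 32.5 and 37.2 FPKM in CD and 12.8, 10.2, 12.8 and 11.8 FPKM in HFD mice. In neither gene did the groups overlap. They fell with a log2FC of -1.52 (SE 0.22, q 0.00666) and a log2FC of -1.37 (SE 0.23, q 0.0113). Srxn1, sulfiredoxin, had 9.31, 11.1, 11.9 and 13.02 FPKM in CD and 26.1, 26.9, 23.1 and 15.4 FPKM in HFD mice, and HFD217 was nearest to the CD mice. It rose with a log2FC of 0.93 (SE 0.17, q 0.0149), or 1.103 without HFD217 (q 0.00113), and its q was 0.0503 without HFD213. The other higher genes were Nfe2l2, which encodes NRF2, at 0.42 (q 0.0329), and Mgst1, at 0.43 (q 0.0305). The q of Nfe2l2 was 0.0611 to 0.0881 without each mouse but HFD217, and that of Mgst1 was 0.0598 to 0.0954 without each mouse but CD205 and HFD217. Nqo1 changed by 0.95 (q 0.0833) and by 1.25 without HFD217 (q 0.00161). The mu-class gene Gstm3 changed by 0.56 (q 0.713) and by 1.41 without HFD217 (q 0.00677). There HFD217, at 6.66 FPKM, was under the lowest CD value of 25.0 FPKM.

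Bile acid synthesis and transport held 3 higher and 1 lower gene among 21 (median 0.12). The lower count was 2 without HFD217 and 0 without each mouse but CD203 and HFD217. Abcb4, which moves phospholipid into bile, had 48.3, 54.5, 47.5 and 44.5 FPKM in CD and 116, 103.9, 98.3 and 79.5 FPKM in HFD mice, without overlap, and rose with a log2FC of 1.01 (SE 0.12, q 0.0036). The basolateral exporter gene Abcc3 rose by 0.81 (q 0.00899), and the uptake transporter gene Slco1b2 by 0.48 (q 0.0227), where the q was 0.0593 to 0.0641 without CD203, HFD211, HFD212 or HFD213. The bile salt export pump gene Abcb11 was lower at -0.72 (q 0.0497), and its q was 0.0659 to 0.12 without each mouse but CD203. Cyp7a1, the rate-limiting enzyme of synthesis, had 38.2, 4.23, 8.46 and 12.2 FPKM in CD and 3.90, 11.2, 56.3 and 15.1 FPKM in HFD mice. HFD213 and CD203 were highest, the groups overlapped, and the change of 0.28 (q 0.88) did not pass.

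Lipoprotein genes gave 0 calls in limma with all 8 mice (7 of 15 at an unadjusted p under 0.05), with a median of 0.00. Without HFD217, 2 were higher and 1 lower. Apoa4, an apolipoprotein of triglyceride-rich particles, had 441, 173, 239 and 98.8 FPKM in CD and 2815, 2386, 3375 and 216 FPKM in HFD mice. HFD217 lay inside the CD range and the other HFD mice several times above it, for 2.85 (q 0.107) with it and 3.77 without HFD217 (q 0.00287). Apoc2, which activates lipoprotein lipase, had 265, 257, 249 and 168 FPKM in CD and 613, 575, 656 and 257 FPKM in HFD mice. Again HFD217 lay inside the CD range, for 1.09 (q 0.0656) and 1.41 without HFD217 (q 0.00161). The lower gene was hepatic lipase, Lipc, at -0.47 (q 0.0597) and -0.56 without HFD217 (q 0.014).

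Genes of gluconeogenesis and glucose use gave 1 higher and 0 lower among 16 (median 0.24), close to the 6.17% of all tested genes that were higher. Higher genes numbered 3 without CD203 and 0 without CD205, CD207, HFD211, HFD212 or HFD213. The gene was Pcx, pyruvate carboxylase, with 135, 108, 104.5 and 76.1 FPKM in CD and 198, 202, 183 and 146 FPKM in HFD mice. Its groups did not overlap and it rose with a log2FC of 0.79 (SE 0.17, q 0.0302), or 0.90 without HFD217 (q 0.0135), while the q was 0.0651 to 0.0859 without CD205, CD207, HFD211, HFD212 or HFD213. Pck1, the phosphoenolpyruvate carboxykinase of gluconeogenesis, had 1373, 597, 1036 and 919.5 FPKM in CD and 1273, 1107, 383 and 329.7 FPKM in HFD mice. HFD213 and HFD217 were lowest and HFD211 and HFD212 within the CD range, for -0.53 (q 0.569). Glucose 6-phosphatase, G6pc, stood at -0.20 (q 0.768). Insulin receptor signaling gave 0 calls in limma among 17 genes (5 at an unadjusted p under 0.05), with a median of -0.01, and the receptor gene Insr stood at 0.06 (q 0.799).

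Without HFD217, 1 gene of that list was higher, Pik3r1, at 0.47 (q 0.0319), and 1 lower, Igfbp2, at -1.20 (q 0.00873). Igfbp2, a binding protein of insulin-like growth factors, had 216, 231, 220.1 and 285 FPKM in CD and 93.5, 78.8, 147 and 216 FPKM in HFD mice. HFD217 lay just under CD203, the lowest CD mouse, so the groups did not overlap, and the change was -0.93 (q 0.0945) with all 8 mice. Igfbp1, which insulin represses within hours, had 151, 12.5, 8.20 and 14.6 FPKM in CD and 142, 306.7, 11.2 and 10.3 FPKM in HFD mice. CD203, HFD211 and HFD212 were high, the other mice low, and the change of 1.09 (q 0.678) did not pass.

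Zonation markers moved in both directions. Of 9 periportal hepatocyte markers, 0 were higher and 5 lower (median -0.53), and of 9 pericentral markers, 3 were higher and 0 lower (median 0.31). In bulk liver, fewer cells of a type and less RNA per cell cannot be told apart. The periportal count was 3 without CD207, CD208, HFD212 or HFD213, and the pericentral count was 1 without each mouse but CD203 and HFD217. Without HFD217 the periportal list had 4 lower and 1 higher, and the pericentral list 2 higher and 1 lower. The higher periportal marker was Hsd17b13 and the lower pericentral marker Cyp1a2, with values given above among the lipid droplet and P450 genes. With all 8 mice as well, each was the member of its list whose log2FC went against the others. Summed FPKM of the periportal markers was 6523, 4854, 6067 and 5686 FPKM in CD and 5118, 4765, 3843 and 3737 FPKM in HFD mice. The periportal P450 Cyp2f2 had 902, 1000.5, 920.0 and 900.3 FPKM in CD and 570.5, 555, 489 and 538 FPKM in HFD mice, and Hal, histidine ammonia lyase, 144, 186, 205.4 and 149.5 FPKM in CD and 98.6, 71.2, 79.3 and 71.6 FPKM in HFD mice. In both all HFD mice lay under all CD mice, for a log2FC of -0.79 (SE 0.08, q 0.00205) and a log2FC of -1.08 (SE 0.15, q 0.00532).

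Gls2, liver glutaminase, fell with a log2FC of -0.77 (SE 0.14, q 0.0146). The urea cycle gene Ass1 had -0.48 (q 0.0302) and the E-cadherin gene Cdh1 -1.14 (q 0.04), where the q of Ass1 was 0.0545 to 0.0908 without each mouse but CD205 and HFD217 and that of Cdh1 was 0.0588 to 0.105 without each mouse but CD203 and HFD211. Beside Cyp2e1, glutamine synthetase, Glul, restricted to the cells around the central vein, had 293, 279.6, 247 and 313.4 FPKM in CD and 387, 468, 457 and 337 FPKM in HFD mice, without overlap and with HFD217 the lowest HFD mouse. Glul rose with a log2FC of 0.53 (SE 0.12, q 0.0366), or 0.62 without HFD217 (q 0.00938), and its q was 0.0529 to 0.0996 without each mouse but HFD217. Ornithine aminotransferase, Oat, had 0.61 (q 0.0474), where the q was 0.0561 to 0.119 without each mouse but CD203. Of the 9 general hepatocyte markers, 0 were higher and 1 was lower (median -0.17): Cps1, the entry enzyme of the urea cycle, at -0.69 (q 0.0254). Its q was 0.0601 to 0.0732 without CD203, CD207, CD208, HFD211 or HFD212, and the lower count of the list was 2 without CD205 or HFD217.

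Non-parenchymal markers gave few calls with all 8 mice. Kupffer cell markers had 0 higher and 0 lower of 7 (1 at an unadjusted p under 0.05, limma; median -0.20), macrophage and monocyte markers 0 and 0 of 7 (0; 0.01), lipid-associated macrophage markers 0 and 0 of 4 (1; 0.07) and endothelial markers 0 and 0 of 9 (1; -0.19). Endothelial markers had 1 lower without CD208. Clec4f, the Kupffer cell lectin, had 21.5, 21.9, 27.1 and 13.8 FPKM in CD and 13.4, 23.1, 16.8 and 16.5 FPKM in HFD mice, and its groups overlapped. Without HFD217, 2 of 8 macrophage markers and 3 of 5 lipid-associated macrophage markers were higher, each count with 1 gene that passed through HFD mice alone, and 1 Kupffer cell marker was lower, C6, at -1.17 (q 0.0296). C6 also passed without HFD213, at a q of 0.0422, and it is a complement gene that hepatocytes express too. The lysosomal marker Cd68 had 3.35, 3.79, 3.97 and 1.87 FPKM in CD and 5.41, 6.72, 8.52 and 2.37 FPKM in HFD mice, for 0.60 (q 0.307) and 0.91 without HFD217 (q 0.0318). The tetraspanin gene Cd63 had 5.02, 3.95, 5.33 and 3.58 FPKM in CD and 11.4, 13.6, 15.6 and 4.27 FPKM in HFD mice, for 1.05 (q 0.103) and 1.41 without HFD217 (q 0.0011). In both, HFD211, HFD212 and HFD213 lay above all CD mice and HFD217 within the CD range.

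The summed FPKM of the lipid-associated macrophage markers was 38.9, 42.3, 43.0 and 36.5 FPKM in CD and 61.4, 70.8, 66.3 and 26.8 FPKM in HFD mice, with osteopontin, Spp1, the most abundant at a mean of 26.7 FPKM. Spp1 is also a cholangiocyte marker and changed by 0.37 (q 0.393), or 0.63 without HFD217 (q 0.00404). The lipid-associated marker that passed the filter through HFD mice alone, without HFD217, was macrophage elastase, Mmp12. Matrix genes gave 0 calls of 14 in limma with all 8 mice (5 at an unadjusted p under 0.05; median 0.39), and 7 higher of 15, Mmp12 included, without HFD217 (median 0.62). Col1a1, the main chain of type I collagen, had 1.15, 1.21, 1.53 and 1.41 FPKM in CD and 7.25, 10.3, 8.31 and 0.77 FPKM in HFD mice, and Col3a1 3.03, 3.31, 3.60 and 3.80 FPKM in CD and 11.8, 14.2, 12.02 and 2.17 FPKM in HFD mice. HFD217 was the lowest of all 8 mice in both, and the other HFD mice were above every CD mouse. Their log2FCs were 1.43 (q 0.165) and 1.097 (q 0.213) with all 8 mice, and 2.04 (q 0.000134) and 1.62 (q 0.000134) without HFD217, where the mouse left out is the one that lay lowest. Col1a2 and Col6a1 also passed without it, at 1.56 (q 0.000719) and 0.75 (q 0.00429).

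Of 10 stellate cell and fibroblast markers, 1 was higher and 0 lower (median 0.32), beside 6.17% of all tested genes higher, and 4 were higher without HFD217. The higher gene with all 8 mice was the pericyte marker Rgs5, with 4.23, 3.28, 3.54 and 3.72 FPKM in CD and 7.27, 6.87, 5.74 and 5.77 FPKM in HFD mice, without overlap, and a log2FC of 0.66 (SE 0.10, q 0.00674). In the fit of 48 libraries the q of Rgs5 was 0.102. Decorin, Dcn, the most abundant of the list, changed by 0.44 (q 0.135). The list's summed FPKM was 72.9, 56.7, 82.4 and 58.7 FPKM in CD and 107, 122, 112.7 and 71.1 FPKM in HFD mice.

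Cfd (NCBI Gene 11537, chr10:79890853-79892660), adipsin, a complement protease best known from fat cells, had 0.42, 0.82, 0.33 and 0.05 FPKM in CD and 18.3, 10.3, 4.74 and 7.38 FPKM in HFD mice. HFD211 was highest, the groups were far apart, and the gene rose with a log2FC of 2.87 (SE 0.35, q 0.00442). With Fabp4 it made 2 tested adipocyte markers, and without HFD217 Cidea was the third of 3. Cfd and Cidea passed through HFD mice alone, so no count of calls is given. The defining markers of fat cells were at or near 0: Adipoq had at most 0.07 FPKM, Plin1 at most 0.02 FPKM, and Lep was at 0 in all 8 libraries. Erythroid markers had 0 higher and 1 lower of 5 (median -1.57), the lower one Alas2, at -0.56 (q 0.0387), whose q was 0.0608 to 0.101 without each mouse but HFD211 and HFD217. Their summed FPKM was 2040.5, 985, 443 and 1708 FPKM in CD and 891, 177, 527 and 315.6 FPKM in HFD mice, led by Hba-a1, with 721, 329, 143 and 571 FPKM in CD and 279.9, 46.4, 173 and 87.7 FPKM in HFD mice. CD203 and CD208 held the most globin RNA, the groups overlapped, and the globin copies are near-identical. The part of blood in the result for Alas2 was not tested.

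Pancreatic acinar markers gave 0 calls of 2 in limma (2 at an unadjusted p under 0.05), and their most abundant gene was the salivary-type amylase Amy1, at 142 FPKM on average. Cela1 had 28.5, 41.5, 40.1 and 44.4 FPKM in CD and 14.5, 15.1, 12.8 and 43.6 FPKM in HFD mice. HFD217 was within the CD range and the other HFD mice under it, for -0.98 (q 0.15) and -1.38 without HFD217 (q 0.00128). Of the acinar markers Prss1 was at 0 in all 8 libraries. Cholangiocyte markers gave 0 calls of 3 in limma (0 at an unadjusted p under 0.05), and 1 without HFD217, Spp1. No gene of the neutrophil, T and NK cell, B and plasma cell or skeletal muscle lists passed the filter, with highest single values of 1.71, 0.89, 1.16 and 0.19 FPKM. Without HFD217, 1 neutrophil marker, S100a9, passed through HFD mice alone.

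Interferon-stimulated genes had 1 higher and 0 lower of 17 (median 0.33), close to the 6.17% of all tested genes that were higher. Higher genes numbered 3 without HFD217 and 0 without CD205, CD207, HFD212 or HFD213. The gene was the chemokine Cxcl10, with 2.98, 2, 1.83 and 3.15 FPKM in CD and 4.72, 7.42, 8.32 and 4.26 FPKM in HFD mice, without overlap. It rose with a log2FC of 1.02 (SE 0.21, q 0.025), or 1.15 without HFD217 (q 0.00982), and its q was 0.0604 to 0.0796 without CD205, CD207, HFD212 or HFD213. Class II antigen presentation gave 0 calls of 6 in limma (1 at an unadjusted p under 0.05), with a median of -0.28 and H2-Aa at -1.04 (q 0.0841). The respiratory chain had 2 higher and 0 lower of 15 (median 0.15), the complex III gene Uqcrc2, at 0.32 (q 0.0172), and the complex I gene Ndufs1, at 0.33 (q 0.0185). The count was 1 without CD205 and 0 without CD207, HFD211 or HFD212. The q of Uqcrc2 was 0.0542 to 0.0575 without CD207, HFD211 or HFD212, and that of Ndufs1 was 0.0546 to 0.0659 without CD205, CD207, HFD211 or HFD212. Of 18 proliferation genes 3 passed the filter and 0 were called by limma (0 at an unadjusted p under 0.05). Without HFD217, 5 passed and 1 was higher, as 1 was without CD208, a gene that passed through HFD mice alone.

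Clock genes gave 0 calls of 15 in limma (0 at an unadjusted p under 0.05; median 0.17), and immediate early genes 0 of 12 (1; 0.42). Dbp, a transcription factor with a large daily rhythm, had 92.2, 0.43, 98.8 and 62.5 FPKM in CD and 25.5, 32.5, 93.4 and 71.9 FPKM in HFD mice. CD205 was near 0 while the 3 other CD mice were high, and the HFD mice lay within the CD range. Egr1, which responds to stimuli within minutes, had 117.7, 0.9, 2.31 and 14.0 FPKM in CD and 73.7, 113.1, 2.30 and 5.71 FPKM in HFD mice. CD203, HFD211 and HFD212 were high and the other mice low, the pattern seen above for Igfbp1 and Pdk4. Summed over the immediate early list, FPKM was 581, 121, 123 and 169 FPKM in CD and 415.8, 609, 81.3 and 109 FPKM in HFD mice, and over the clock list 381, 148, 378 and 301 FPKM in CD and 237, 285, 365 and 321 FPKM in HFD mice. The part of these levels in the diet results was not tested.

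Other DEGs with the largest changes in either direction fell in none of the lists. Ly6d (NCBI Gene 17068, chr15:74762056-74763567), a lipid-anchored surface protein, had 0.45, 0.33, 0.98 and 0.2 FPKM in CD and 25.5, 21.4, 23.4 and 1.45 FPKM in HFD mice. HFD217 stayed close to the CD mice, with no overlap, and its difference was a log2FC of 3.23 (SE 0.74, q 0.04). That call was lost with no filter (q 0.0517). Its q was 0.0838 to 0.111 without each mouse but HFD217. Lgals1 (NCBI Gene 16852, chr15:78926725-78930465), galectin-1, a lectin that binds β-galactosides, had 17.2, 21.4, 14.5 and 9.98 FPKM in CD and 146, 144, 155 and 43.4 FPKM in HFD mice, with HFD217 lowest of the HFD mice, and rose with a log2FC of 2.76 (SE 0.42, q 0.00977), or 3.20 without HFD217 (q 0.000291). Rad51b (NCBI Gene 19363, chr12:79297282-79848260), a gene of DNA repair by recombination, had 0.29, 0.6, 0.29 and 0.14 FPKM in CD and 12.1, 9.61, 13.3 and 2.46 FPKM in HFD mice, in the same order, and rose with a log2FC of 2.79 (SE 0.42, q 0.00941).

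Among the lower ones, Egfr (NCBI Gene 13649, chr11:16752203-16913907), the epidermal growth factor receptor, had 93.7, 75.8, 93.5 and 95.3 FPKM in CD and 29.1, 29.3, 18.4 and 49.1 FPKM in HFD mice. Egfr fell with a log2FC of -1.55 (SE 0.25, q 0.00958), or -1.79 without HFD217 (q 0.000779). C8b (NCBI Gene 110382, chr4:104764103-104804548), a chain of the complement attack complex, had 169, 179, 147 and 168 FPKM in CD and 37.8, 44.6, 34.7 and 105 FPKM in HFD mice. HFD217 lay between the other HFD mice and the CD mice, for a log2FC of -1.71 (SE 0.31, q 0.0172), or -2.06 without HFD217 (q 7.39e-05), and the q was 0.0502 to 0.056 without each mouse but CD203 and HFD217. The cell adhesion gene Cadm4 (NCBI Gene 260299, chr7:24482023-24504533) had 4.83, 6.40, 7.24 and 7.63 FPKM in CD and 0.76, 1.25, 0.92 and 2.82 FPKM in HFD mice, again with HFD217 highest of the HFD mice, for a log2FC of -1.68 (SE 0.24, q 0.00655). Gapdh-ps15 (NCBI Gene 100042025, chrY:38619728-38620971), a pseudogene of glyceraldehyde 3-phosphate dehydrogenase, had 13, 7.45, 17.0 and 12.1 FPKM in CD and 2.26, 0.97, 2.13 and 0.84 FPKM in HFD mice, for a log2FC of -2.39 (SE 0.27, q 0.0033). Reads of the parent gene and its pseudogenes are hard to tell apart, so this level is uncertain.

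Whether the diet effect at 8 weeks differed from that at other times was tested as a difference of differences in 1 limma fit of all 48 liver libraries, with 10879 genes. Each week had its own CD and HFD mice. Against week 4, 131 genes (1.2%) had a higher and 60 (0.552%) a lower log2FC at week 8, at q under 0.05. Without HFD217 these were 272 and 135. Higher genes numbered 72 without CD207 or CD208, 51 without HFD211, 65 without HFD212 and 46 without HFD213. The lower count was 25 without CD207, 37 without HFD212 and 22 without HFD211 or HFD213. Against week 12, 1 gene (0.00919%) was higher and 1 (0.00919%) lower, beside 960 at an unadjusted p under 0.05. Against the mean of weeks 4, 12, 16, 20 and 24, 6 (0.0552%) were higher and 7 (0.0643%) lower, and without HFD217 42 and 16. Their total of 13 was 5 without CD205, 2 without CD207 or HFD213, 8 without CD208 and 7 without HFD211 or HFD212. The total of 2 against week 12 was 0 without CD208 or HFD213, 1 without CD205 and 4 without CD203 or HFD217.

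The 6 genes with the smallest q and a higher effect at week 8 than at week 4 were Ifi27l2b, Mogat1, Pigp, Cyp2b9, Treh and Lgals1. Mogat1 had log2FCs of 0.02, 2.52, 2.28, 2.18, 1.94 and 1.72 at weeks 4, 8, 12, 16, 20 and 24, so that the HFD mice differed little from the CD mice at week 4 and exceeded them from week 8 on. The difference between weeks 8 and 4 was 2.50 (SE 0.36, q 5.99e-05), or 2.93 without HFD217. In the same order of weeks, Cyp2b9 had 0.52, 6.28, 5.31, 4.96, 4.90 and 3.26 and a difference of 5.76 (q 0.000141), Lgals1 had -0.28, 2.76, 2.87, 2.95, 2.43 and 1.5001 and 3.05 (q 0.000387), and the interferon-inducible Ifi27l2b had -0.73, 2.52, 3.14, 2.44, 2.10 and 1.95 and 3.26 (q 2.65e-05). The GPI anchor gene Pigp and the trehalase gene Treh differed by 1.40 (q 9.42e-05) and 1.90 (q 0.000323). At week 8 itself, in the fit of its 8 libraries, Ifi27l2b, Pigp and Treh rose by 2.52 (q 0.0137), 0.99 (q 0.00899) and 1.49 (q 0.0366). The q of Ifi27l2b there was 0.0515 without CD207, and that of Treh was 0.0575 to 0.103 without each mouse but HFD217.

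The 6 with a lower effect at week 8 than at week 4 were Dgcr6, Adgrf1, Serpina9, Slco2a1, Gcnt4 and Lifr. Dgcr6 had 2.34, 0.14, 0.28, 0.22, -0.17 and -0.01 over the weeks and a difference of -2.20 (q 4.50e-07), which came from week 4, where its mean was 4.82 FPKM in CD mice against 24.3 FPKM in the CD mice of week 8. Lifr, a subunit of cytokine receptors, had 0.9996, -1.54, -0.72, -0.80, -1.12 and -0.98, positive at week 4 and negative afterwards, and a difference of -2.54 (q 0.0011), or -2.94 (q 1.24e-05) without HFD217. The prostaglandin transporter gene Slco2a1 had -0.04, -1.36, -0.99, -1.10, -1.07 and -0.94 and a difference of -1.32 (q 0.000524). Gcnt4 differed by -0.94 (q 0.00073), and Serpina9 by -1.93 (q 5.99e-05). In the 8 libraries of week 8 alone, Slco2a1, Serpina9 and Lifr fell, at -1.36 (q 0.00286), -1.28 (q 0.0134) and -1.54 (q 0.0416), and the q of Lifr was 0.0759 to 0.117 without each mouse but HFD217.

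Adgrf1, an adhesion G protein-coupled receptor, was lower at week 8 in all 3 contrasts. It had 1.36, 1.77, 1.75 and 2.58 FPKM in CD and 0.06, 0.06, 0.06 and 0.35 FPKM in HFD mice, and 0.23, -1.33, -0.29, -0.32, -0.93 and -0.24 over the weeks. Its week 8 effect differed by -1.56 (q 6.46e-07) from week 4, by -1.04 (q 0.0128) from week 12 and by -1.02 (q 8.67e-05) from the mean of the other weeks. Of the 48 libraries 5, all from CD mice, reached 1 FPKM of it, and with no filter these q were 9.21e-07, 0.0168 and 0.000117. The CD means were 1.86 FPKM at week 8 and 0.3 FPKM at week 12, and the HFD means 0.133 and 0.0425 FPKM. The q against week 12 was 0.0678 without CD208 and 0.0539 without HFD213, and with a pseudocount of 0.1 it was 0.182. The gene higher against week 12 was the phospholipase gene Pla2g12a, with 7.36, 7.51, 10.2 and 7.37 FPKM in CD and 11.3, 10.2, 13.6 and 12.6 FPKM in HFD mice, where CD207 equalled HFD212. Its log2FCs over the weeks were 0.12, 0.51, -0.93, -0.31, 0.57 and 0.21, and the difference was 1.44 (q 0.018). Its q was 0.0624 to 0.0812 without CD205, CD208 or HFD213. In a fit of weeks 8 and 12 alone no gene passed in limma (1179 at an unadjusted p under 0.05).

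The 6 genes higher against the mean of the other weeks were Cyp4a14, Oat, Lhpp, Plbd1, Cpox and Vnn1. Cyp4a14 had 2.77, 5.39, -0.51, -0.84, 0.76 and -0.42 over the weeks and a difference of 5.03 (SE 0.94, q 0.0177), or 5.24 (q 0.00836) without HFD217. Its CD means were 44.3, 32.3, 1162, 1073, 257 and 689 FPKM at weeks 4, 8, 12, 16, 20 and 24, and its HFD means 338, 773, 566, 532, 443 and 584 FPKM. The CD level thus varied more between weeks than the HFD level, and was lowest at week 8. Its q was 0.0624 to 0.079 without CD207, CD208 or HFD213. Cyp4a10 had 1.61, 3.001, -0.85, -1.18, -0.07 and -0.25 over the weeks, and CD means of 102, 98.9, 705, 793, 278 and 390 FPKM. Its difference from the mean of the other weeks did not pass (q 0.115). At weeks 12, 16 and 24, Cyp4a31 and Acot1 also had negative log2FCs. Acadm, Acot2 and Cpt1a stayed positive in those weeks, while Ehhadh and Bdh1 had both signs. Vnn1 had 0.99, 3.39, 1.27, 1.20, 2.56 and 0.48 and a difference of 2.09 (q 0.0313), and its q was 0.0696 to 0.167 without each mouse but CD203 and HFD217. Oat had -0.23, 0.61, -0.41, -1.31, -0.88 and -0.87, positive at week 8 and negative in the other weeks, and a difference of 1.35 (q 0.0193), whose q was 0.0919 to 0.114 without CD205, CD207 or HFD213.

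Lhpp, Plbd1 and the heme synthesis gene Cpox differed by 0.98 (q 0.0193), 0.59 (q 0.0193) and 0.72 (q 0.0273). Their q was 0.0503 to 0.132 without CD205, CD207, CD208, HFD212 or HFD213 for Lhpp, was 0.114 without CD207 and 0.132 without HFD213 for Plbd1 and was 0.0841 to 0.181 without CD207, CD208, HFD211, HFD212 or HFD213 for Cpox. The 6 lower genes with the smallest q were Adgrf1, Serpina9, Slc13a2, Snx29, 6330416G13Rik and Prpf6. Serpina9 differed by -1.41 (q 0.000416) and the dicarboxylate transporter gene Slc13a2 by -0.85 (q 0.0193). Both were weakly expressed, with CD means of 2.08 and 2.16 FPKM at week 8. The q of Slc13a2 was 0.0686 to 0.109 without CD205, CD207, HFD212 or HFD213, and was 0.245 with a pseudocount of 0.1. It passed the filter through CD mice alone, and had 0.0249 with no filter. Snx29, 6330416G13Rik and the splicing gene Prpf6 differed by -0.56 (q 0.0204), -0.74 (q 0.0273) and -0.49 (q 0.0273). The q of Snx29 was 0.079 to 0.132 without CD205, CD207, HFD211, HFD212 or HFD213. That of 6330416G13Rik was 0.0624 to 0.104 without each mouse but CD203 and HFD217, and that of Prpf6 was 0.0683 to 0.143 without each mouse but CD208 and HFD217.

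**Figure D4:**
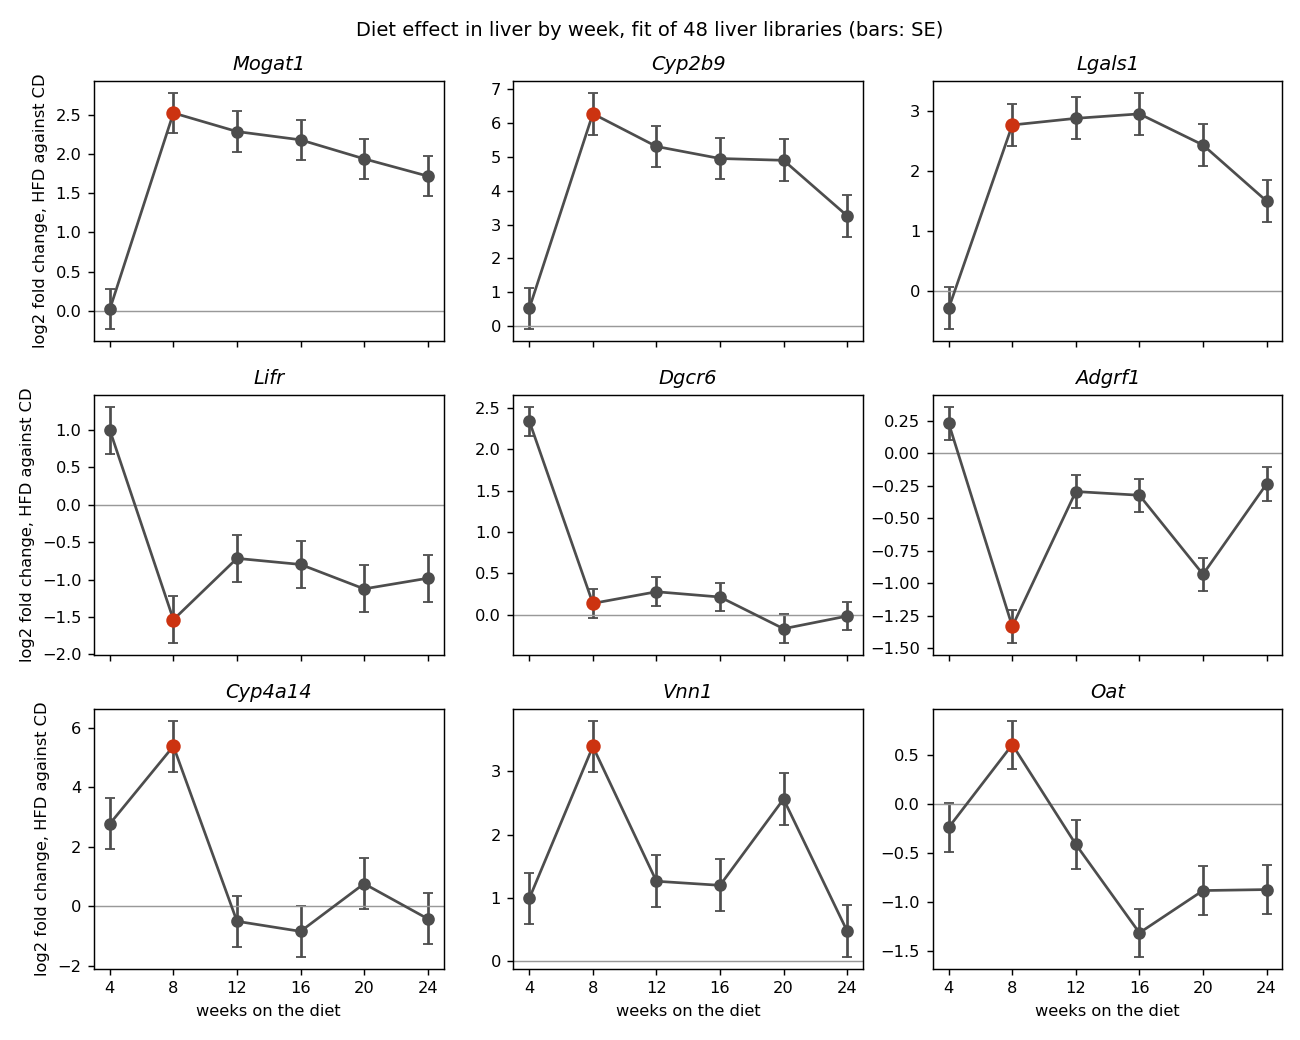
Log2 fold change of HFD against CD liver at each of 6 weeks on the diets, from the fit of 48 liver libraries, with bars for the SE and week 8 in red. Mogat1, Cyp2b9 and Lgals1 step up between weeks 4 and 8, and Cyp4a14 is highest at week 8, at 5.39.

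Promoters were searched for letters that lipid regulators are known to bind, in the 41 genes called higher in the lists of fat uptake, lipid droplets and oxidation. No cholesterol gene was called. The RefSeq promoter table (build GRCm38.p6, 300 bases from 250 before to 50 after a gene's start) held 38 promoters of 32 of them. The genes it had none for include Cyp4a10, Cyp4a14, Cyp4a31, Fabp4, Hsd17b4 and Vnn1. A direct repeat of AGGTCA with 1 base between its copies, with at most 1 of its 12 letters different and on either strand, is the kind of element PPARα and HNF4α bind. It was found in 1 of these promoters (2.63%) and in 182 of all 32851 promoters (0.554%). The sterol element core TCACNCCAC was found in 1 (2.63%), against 1.24% of all promoters, and the NF-Y box CCAAT in 16 (42.1%), against 37.4%. The promoters that hold the repeat (Fabp1, at chr6:71199629-71199928, plus strand) and the sterol core (Ehhadh, at chr16:21787785-21788084, minus strand) are shown with those of the fat uptake genes with the largest changes (Cd36, at chr5:17835847-17836146, minus strand, and Mogat1, at chr1:78510810-78511109, plus strand). Each runs 5′ to 3′ along the gene's strand. Capitals mark the repeat in Fabp1, the sterol core and the NF-Y box in Ehhadh, and the NF-Y box in Cd36 and Mogat1. A match is a description of the sequence, not a site shown to be bound.
Fabp1: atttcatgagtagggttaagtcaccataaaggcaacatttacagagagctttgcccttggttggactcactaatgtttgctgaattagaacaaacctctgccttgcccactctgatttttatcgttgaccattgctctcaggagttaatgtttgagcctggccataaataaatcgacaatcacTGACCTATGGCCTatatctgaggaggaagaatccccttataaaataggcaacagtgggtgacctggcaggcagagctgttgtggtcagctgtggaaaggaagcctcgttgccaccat
Ehhadh: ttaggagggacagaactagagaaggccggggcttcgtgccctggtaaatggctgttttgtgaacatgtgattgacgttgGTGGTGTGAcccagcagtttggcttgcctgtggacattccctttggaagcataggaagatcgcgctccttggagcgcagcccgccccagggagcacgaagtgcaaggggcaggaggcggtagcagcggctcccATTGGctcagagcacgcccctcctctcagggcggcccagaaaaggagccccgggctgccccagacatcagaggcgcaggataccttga
Cd36: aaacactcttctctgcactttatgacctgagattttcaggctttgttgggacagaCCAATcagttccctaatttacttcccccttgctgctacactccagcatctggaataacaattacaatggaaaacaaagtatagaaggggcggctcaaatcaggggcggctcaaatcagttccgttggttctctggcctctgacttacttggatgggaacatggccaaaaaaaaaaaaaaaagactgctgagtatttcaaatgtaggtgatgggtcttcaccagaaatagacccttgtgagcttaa
Mogat1: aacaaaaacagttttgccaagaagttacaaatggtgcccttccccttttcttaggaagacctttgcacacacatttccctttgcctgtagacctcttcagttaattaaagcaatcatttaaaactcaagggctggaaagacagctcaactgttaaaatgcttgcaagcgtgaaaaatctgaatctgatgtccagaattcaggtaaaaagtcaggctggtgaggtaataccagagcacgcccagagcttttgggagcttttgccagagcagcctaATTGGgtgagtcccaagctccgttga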

How the data were processed

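Poly(A) RNA was sequenced from 1 liver per mouse, and the authors deposited FPKM values rounded to 2 decimals for 21990 genes, of which 20155 have values. Their notes name HISAT2 2.0.4, Bowtie2 2.2.5, RSEM 1.1.12 and build GRCm38.p5. No read counts were analysed here. The 216 deposited columns of the authors' own comparisons were not used. limma 3.58.1 in R 4.3.3 (trend, robust, two-sided) was fitted to log2(FPKM + 1) of the 8 libraries, and to the 48 liver libraries in 12 diet and week groups, with at least 1 FPKM in 4 libraries. Alternatives were a pseudocount of 0.1, no filter, a filter of 5 FPKM, median ratio scaling, array weights, no trend, the 48-library fit, and leaving out each mouse of week 8. The members and gene lists were chosen with earlier results of these data known. Named were the 12 DEGs with the largest and the 12 with the smallest log2FC, members of the 24 pathway and 16 marker lists (mouse by mouse for at most 4 a list), and the 6 smallest q per week contrast and direction. Other names, and the mismatch in the promoter search, were chosen after values were seen. 5 list genes had no match in the table.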

Additional observations from a re-analysis of the deposited data

Results flagged for a closer look

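For 81 genes given mouse by mouse, 1 mouse lay far from the 3 others of its group in 21 of 162 groups, counting a gap to the nearest mouse that took more of the range than Dixon's critical value allows. Independent normal samples give about 1 in 20 such groups by chance. These genes share the same 8 mice and were partly chosen by their values, so the count is not set against that rate. In FPKM, these values were Igfbp1 (151), Gdf15 (32.5), Angptl8 (83.5), Egr1 (117.7), Mt1 (202) and Pdk4 (18.4) in CD203, Cyp26a1 (61.3), Aldh1a1 (620.5) and Egfr (75.8) in CD205, Pla2g12a (10.2) in CD207, Apoc2 (168) in CD208, Cidea (34.0) in HFD211, Igf1 (69.8) in HFD213 and Cyp1a2 (299.9), Hsd3b5 (123), Mup7 (14531), Cela1 (43.6), Lgals1 (43.4), C8b (105), Ces2a (78.9) and Adgrf1 (0.35) in HFD217. HFD217 held 8 of them and CD203 6. The cause was not tested.

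Of the differences over the weeks, only those of genes named in the text are given. The difference in log2FC between week 8 and week 4 passed q under 0.05, with all mice and without any 1 mouse of week 8, for Abcc3 (1.48), Adgrf1 (-1.56), Cd36 (2.49), Cidec (4.001), Cyp2b9 (5.76), Dgcr6 (-2.20), Gapdh-ps15 (-2.23), Gcnt4 (-0.94), Ifi27l2b (3.26), Lgals1 (3.05), Lifr (-2.54), Mogat1 (2.50), Orm2 (4.78), Pigp (1.40), Plin4 (2.45), Prpf6 (-0.74), Serpina9 (-1.93), Slco2a1 (-1.32), Snx29 (-0.76), Treh (1.90) and Ugt2b38 (-2.84). The q of each loss follows. Without HFD211 it was lost for Mgst1 (0.73, q 0.0504). Without HFD213 it was lost for Lcn2 (4.97, q 0.0583) and Nqo1 (1.62, q 0.0546). Without CD207 or HFD213 it was lost for Plbd1 (0.64, q 0.0582 to 0.0606). Without HFD211 or HFD213 it was lost for Abcb4 (1.12, q 0.0523 to 0.0651), Cela1 (-2.14, q 0.0504 to 0.0594), Ly6d (3.52, q 0.0504 to 0.0546) and Rad51b (2.81, q 0.0504 to 0.0547). Without CD208, HFD211 or HFD213 it was lost for Vnn1 (2.40, q 0.0504 to 0.0606). Without HFD211, HFD212 or HFD213 it was lost for Fth1 (0.82, q 0.0504 to 0.0594) and Rdh16 (1.63, q 0.0504 to 0.0516). Without CD207, CD208, HFD211 or HFD212 it was lost for Cfd (2.82, q 0.0582 to 0.0863). Without CD205, CD207, CD208, HFD212 or HFD213 it was lost for Cyp26a1 (-1.997, q 0.0512 to 0.0957). Without CD205, CD207, HFD211, HFD212 or HFD213 it was lost for Slc13a2 (-0.85, q 0.055 to 0.0817). Without CD207, CD208, HFD211, HFD212 or HFD213 it was lost for Cyp2c38 (2.23, q 0.0581 to 0.0853), Pcx (0.85, q 0.0582 to 0.0885) and Pparg (1.24, q 0.0571 to 0.09). Without each mouse but CD205 and HFD217 it was lost for Aldh1a1 (0.97, q 0.0571 to 0.0912). Without each mouse but CD203 and HFD217 it was lost for Cadm4 (-1.25, q 0.0649 to 0.108). Without each mouse but HFD217 it was lost for Cidea (2.76, q 0.0603 to 0.126). With no filter it was lost for Aldh1a1 (q 0.0617), Cadm4 (q 0.0686), Cidea (q 0.0657) and Cyp26a1 (q 0.0625), and with a pseudocount of 0.1 for Cyp26a1 (q 0.074), Slc13a2 (q 0.076) and Ugt2b38 (q 0.0542). From week 4 to week 8 the mean of FPKM, plus 1, changed by a larger factor in CD than in HFD mice for Adgrf1, Cyp26a1, Dgcr6, Gcnt4, Lcn2, Lifr, Orm2, Pcx, Prpf6, Serpina9, Slc13a2, Snx29 and Ugt2b38. Orm2 had CD means of 472 and 13.2 FPKM at weeks 4 and 8 and HFD means of 42.2 and 42.3 FPKM. In the same order Lcn2 had 319.9, 5.64, 56.2 and 68.4 FPKM. Against week 12 the difference was -1.04 for Adgrf1 and 1.44 for Pla2g12a. Against the mean of the other weeks it was 6330416G13Rik -0.74, Adgrf1 -1.02, Cpox 0.72, Cyp4a14 5.03, Lhpp 0.98, Oat 1.35, Plbd1 0.59, Prpf6 -0.49, Serpina9 -1.41, Slc13a2 -0.85, Snx29 -0.56 and Vnn1 2.09. Losses of these are given above.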

How the results depend on the processing

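Of the counts, higher DEGs ran from 65 to 161, lower DEGs from 22 to 64 and genes with q under 0.05 from 329 to 1114 when 1 mouse was left out, and array weights gave 55 lower DEGs and 1279 genes with q under 0.05, 959 higher and 320 lower. Lower genes at that q numbered 133 as reported and 86 with no filter. The count against week 4 ran from 68 to 4.1e+02, against week 12 from 0 to 4 and against the other weeks from 2 to 58. Median ratio scaling gave 363 genes against week 4 (248 higher, 115 lower) and 46 against the other weeks (36 higher). Against week 12, a pseudocount of 0.1 left 1 gene, the higher one, no filter gave 2 higher genes, and the libraries of weeks 8 and 12 alone, with fewer samples, gave 0 genes by limma, with 1179 at an unadjusted p under 0.05. Apart from leaving out 1 mouse, no other alternative moved the counts of higher, lower or all genes, or of DEGs at week 8, by more than 1.5 times. Of 159 named genes tested, 48 passed as reported and under each alternative run, those without 1 mouse included, and 55 passed as reported and were lost under 1 or more. Among the named genes, calls lost and gained were 7 and 30 without HFD217, 5 and 26 with array weights, 26 and 11 in the fit of 48 libraries, 25 and 0 with no filter, where more genes are tested, 5 and 2 with median ratio scaling, 0 and 2 with a filter of 5 FPKM, which tested 132 of them, 1 and 1 without trend and robust variances, and 0 and 0 with a pseudocount of 0.1. In the fit of 48 libraries, calls at week 8 were lost, besides those given with their genes, for Pla2g12a (q 0.101), Plin5 (q 0.0674), Slco1b2 (q 0.36), Abcb11 (q 0.121), Cyp2c29 (q 0.12), Sesn2 (q 0.156), Inhbe (q 0.064), Nfe2l2 (q 0.236), Ndufs1 (q 0.174), Ass1 (q 0.287), Oat (q 0.14) and Alas2 (q 0.123). Of the calls lost with no filter, only those of Cyp2c55 and Ly6d are given with their genes. No call changed direction in these settings. Genes without a call changed sign: Scd1 (0.0155 with array weights, -1.14 to 0.38 without 1 mouse, above 0 without HFD217), Sqle (-1.10 to 0.38 without 1 mouse, above 0 without HFD217), Cyp7a1 (-0.60 with array weights, -0.35 to 0.83 without 1 mouse, with -0.14 without CD205 and -0.35 without HFD213), Dbp (-0.0903 with array weights, -0.76 to 1.29 without 1 mouse, under 0 without CD205) and Insr (-0.0519 with array weights). Apart from the numbers of genes or samples stated, the cause was not tested. No paired analysis was possible because the diet groups hold different mice. Depth is unknown, so its limit on low values could not be set.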
